A study of Capra hircus with 6 samples.

Results

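The 10 genes described here encode chaperones of the heat shock protein families that work in the cytosol and the mitochondria, together with the transcription factor that controls many of them. They were taken by name from the deposited table of read counts, in which all 10 of them were found among 15944 listed genes. The cells were secondary hair follicle dermal papilla cells (SHF-DPCs) in primary culture, passages 4 to 7, isolated from the skin of wild-type Albas cashmere goats (Capra hircus) aged 3 years. The control group (3 libraries) received culture medium, and the ATRA-treated group (3 libraries) received all-trans retinoic acid (ATRA) at 100 µM for 24 h. ATRA is formed from vitamin A and acts through nuclear receptors. The methods give 3 animals as the source of the treated cells, so the libraries of a group are taken as cultures of different goats. Whether a control and an ATRA library with the same number share an animal is not given in the sources used here.

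Molecular chaperones bind unfolded proteins, keep them from aggregating and help them to fold. In the cytosol, HSP70 proteins such as the one encoded by HSPA8 bind a client through cycles of ATP hydrolysis, which J-domain proteins (HSP40, DNAJB1) stimulate and HSP110 proteins (HSPH1, HSPA4) reset by exchanging the nucleotide. Clients then pass to HSP90 (HSP90AA1, HSP90AB1), which matures kinases and steroid receptors. In the mitochondrial matrix the HSP70 protein mortalin (HSPA9) pulls in imported proteins, and the HSP60 and HSP10 proteins (HSPD1, HSPE1) form the barrel and the lid of a folding chamber. Under proteotoxic stress the factor HSF1 binds heat shock elements in the promoters of many of these genes.

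The libraries held 35532339 to 38012771 counts, and edgeR's expression filter kept 12588 genes for testing. Levels are given as CPM, the count relative to library size, after TMM scaling (normalized CPM). The TMM factors were 0.842 to 0.851 in the control group and 1.16 to 1.20 in the ATRA-treated group. Of 11 dermal papilla and mesenchymal markers, 7 exceeded 1 normalized CPM in every control library, among them VIM, ACTA2 and VCAN. The papilla markers PROM1 (the gene of CD133), ALPL and CORIN had at most 1 count in any library. The summed level of this list was 55318 to 58191 normalized CPM in the control group and 2297 to 2393 with ATRA. Its genes differed, since ACTA2 measured 6206 to 7098 in the control group and 7.53 to 9.18 with ATRA. LEF1 measured 14.5 to 17.7 in the control group and 9.95 to 11.7 with ATRA. SOX2, below 1 normalized CPM in every library, was not lower with ATRA. Summed keratinocyte (3 genes listed), endothelial (3), leukocyte (1) and melanocyte (1) markers stayed at or below 11.8 normalized CPM in every library. Endothelial PECAM1 had 0 counts in the control group and 4.98 to 7.71 normalized CPM with ATRA. CDH5, VWF, KRT5 and KRT14 stayed below 1 normalized CPM in every library. The leukocyte marker CD68 measured 2.60 to 5.67 in the control group and 10.6 to 11.8 with ATRA. Keratinocyte KRT10 measured 2.55 to 4.27 and 5.24 to 5.83, and melanocyte PMEL 3.80 to 4.26 and 1.97 to 2.34. The part of these differences in the results below was not tested. In such bulk libraries fewer cells of a type and less RNA per cell cannot be told apart.

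The chaperones did not move as a block after ATRA. Transcripts of HSPA8, DNAJB1, HSPH1 and HSF1 were higher, those of HSPA4, HSP90AA1, HSPD1 and HSPE1 were lower, and those of HSPA9 and HSP90AB1 did not pass the test. By edgeR's quasi-likelihood test with an adjusted p under 0.05, 8 of the 10 members were called, 4 higher and 4 lower. Among all tested genes 79.7% were called (40.9% higher and 38.7% lower), so the members' share lies at the background. The changes were small. The log2 fold change (log2FC, ATRA over control) ran from -0.66 for HSPD1 to 0.60 for HSPA8, and the median of its absolute value was 0.34 over the members and 0.59 over all tested genes. No member passed the thresholds of the study's methods (|log2FC| above 1 with an unadjusted p under 0.05), which 31.0% of all tested genes did. In normalized CPM the groups did not overlap for any of the 10 members, 4 with the ATRA libraries above and 6 with them below, which was so for 80.1% of all tested genes.

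**Figure D1:**
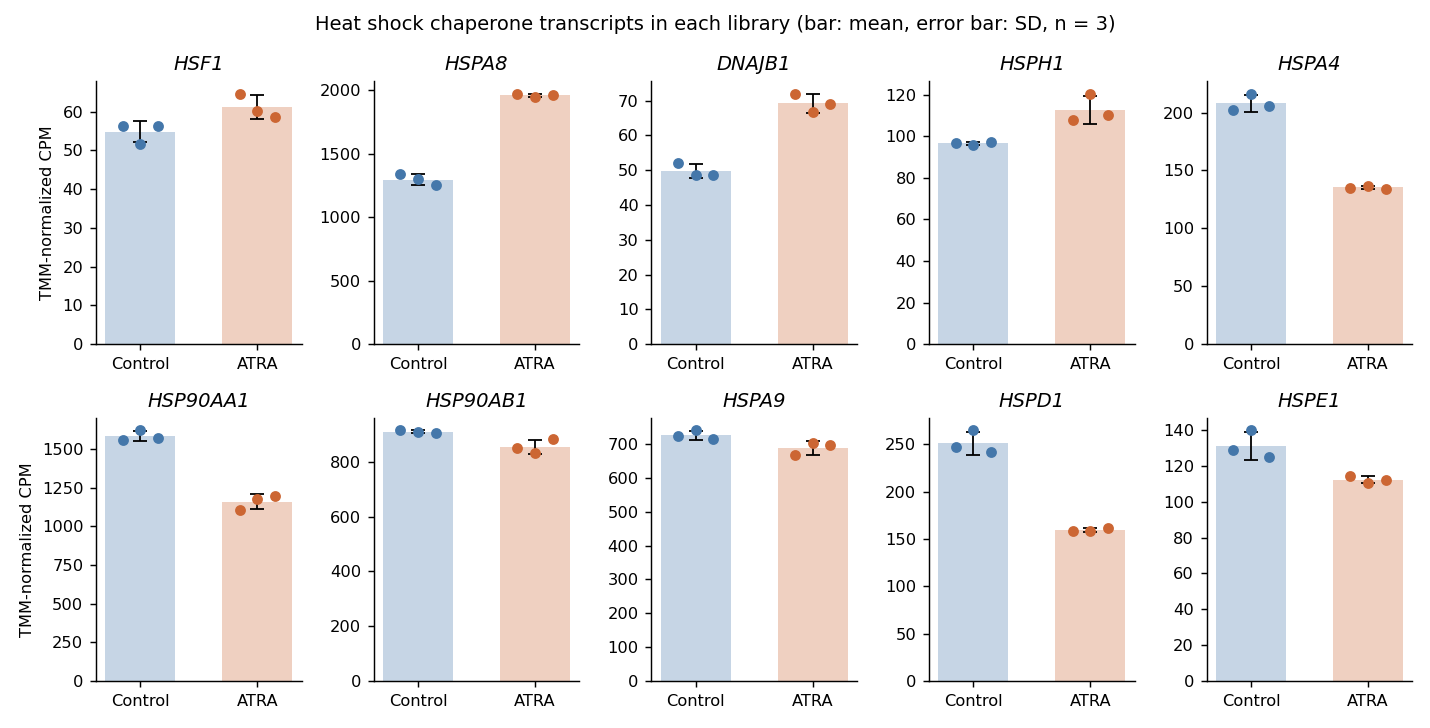
Normalized CPM of each member in the 3 control and 3 ATRA libraries (points), with the group mean (bar, axis from 0) and SD (error bar). HSPA8 stood at 1256 to 1338 in the control libraries and 1950 to 1972 in the ATRA libraries, while HSPD1 stood at 241 to 265 and 158 to 161; with library size as the only scaling both genes kept these directions.

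HSF1 encodes the main activator of heat shock genes. It measured 56.3, 51.7 and 56.3 normalized CPM in the control libraries and 64.6, 60.3 and 58.5 in the ATRA libraries. The groups were apart by little, since the lowest ATRA library lay next to the highest control libraries. The rise was 11.6% (log2FC 0.16, standard error 0.0664, adjusted p = 0.0368). This call did not hold without Control replicate 1 (adjusted p = 0.0584), Control replicate 2 (0.162), Control replicate 3 (0.0595) or ATRA replicate 1 (0.180). It was also lost with RLE scaling (0.0651), without a filter (0.0591), with DESeq2 (0.0744) and with the t.test function of R (0.0767). The call was thus lost in 8 of 15 alternatives, over which the adjusted p ranged from 1.96e-07 to 0.180. These alternatives include a prior count of 2, which cannot change the p-value. The counts measure the transcript and not the activity of the HSF1 protein, which is controlled after translation.

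The cytosolic HSP70 cycle held the members with the clearest increase. HSPA8, the constitutive cytosolic HSP70 also known as HSC70, measured 1338, 1299 and 1256 normalized CPM in the control libraries and 1972, 1949.9 and 1968 in the ATRA libraries. The ATRA libraries lay close together and all far above the control libraries. The level rose from 1298 ± 40.8 to 1963 ± 11.9 (SD, n = 3 each), a gain of 51.3% (log2FC 0.60, standard error 0.0559, adjusted p = 1.55e-08). Its raw counts went from 40360 to 42027 per control library up to 81433 to 86004 per ATRA library.

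DNAJB1, the J-domain partner that delivers clients to HSP70, measured 52.0, 48.7 and 48.6 normalized CPM without ATRA. In the ATRA libraries it measured 72.0, 66.6 and 68.9. Every ATRA library was thus above every control library, and the mean rose from 49.7 ± 1.93 to 69.2 ± 2.70 (SD, n = 3 each). The log2FC was 0.48 (standard error 0.0639, adjusted p = 1.87e-06), a gain of 39.1%.

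The HSP110 genes, whose proteins act as nucleotide exchange factors for HSP70, moved in opposite directions. HSPH1 measured 96.9, 95.6 and 97.2 normalized CPM in the control libraries and 107.7, 120.5 and 110.0 with ATRA. ATRA replicate 2 was the highest of them and the other ATRA libraries were close to each other. HSPH1 rose by 16.8% (log2FC 0.22, standard error 0.0595, adjusted p = 0.00223). Without ATRA replicate 2 its log2FC was 0.16 (adjusted p = 0.00871), the lowest of its 15 alternatives. HSPA4 measured 202, 216 and 205 normalized CPM in the control libraries and 135.2, 136.5 and 134.3 in the ATRA libraries. The ATRA libraries differed among themselves by far less than they differed from the controls, and the level was 65.0% of the control level (log2FC -0.62, standard error 0.0539, adjusted p = 5.39e-09). With the t.test function of R, run on log2(CPM + 1), the call of HSPH1 did not hold (adjusted p = 0.0622).

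The HSP90 genes of the cytosol differed in the size of their change. HSP90AA1, the stress-inducible form, measured 1558, 1623 and 1573 normalized CPM in the control libraries and 1105, 1179 and 1197 in the ATRA libraries. All ATRA libraries were lower, at a mean of 1160.1 ± 48.7 against 1585 ± 33.8 (SD, n = 3 each). The log2FC was -0.45 (standard error 0.0574, adjusted p = 9.76e-07), which leaves 73.2% of the control level. Raw counts per library were 48366 to 52492 without ATRA and 47755 to 51993 with it, so with library size as the only scaling the log2FC was 0.03 (adjusted p = 0.629).

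HSP90AB1, the constitutive form, measured 915, 909.6 and 905 normalized CPM without ATRA and 849, 833 and 884 with it. The groups did not overlap, but the gap was small beside the spread among the ATRA libraries. The log2FC of -0.09 did not pass the test (standard error 0.0551, adjusted p = 0.144), with an approximate 95% interval from -0.20 to 0.02. DESeq2 put it just past the threshold (log2FC -0.11, adjusted p = 0.0441), and library size only gave 0.39 (adjusted p = 2.48e-06).

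The mitochondrial members did not share 1 pattern either. HSPA9 (mortalin) measured 724, 741 and 714 normalized CPM in the control libraries and 667, 705 and 697 in the ATRA libraries. The highest ATRA library reached almost the lowest control library. Its log2FC was -0.08 (standard error 0.0553, adjusted p = 0.219), with an approximate 95% interval from -0.18 to 0.03, and it turned to 0.0013 with upper-quartile scaling and to 0.40 with library size only.

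HSPD1, which encodes HSP60, showed the largest decrease among the members under TMM. It measured 247, 265 and 241 normalized CPM in the control libraries and 158, 159 and 161 in the ATRA libraries. The ATRA libraries were nearly equal and well below every control library. The mean fell from 251 ± 12.3 to 159 ± 1.66 (SD, n = 3 each), which is 63.5% of the control level (log2FC -0.66, standard error 0.0552, adjusted p = 3.44e-09).

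HSPE1, which encodes the HSP10 lid, measured 129, 139.9 and 125 normalized CPM without ATRA and 114, 110.3 and 112 with it. The fall was smaller than that of HSPD1, to 85.5% of the control level (log2FC -0.23, standard error 0.0586, adjusted p = 0.00185). It did not hold with R's t.test function (adjusted p = 0.0523), and with library size only the sign turned (log2FC 0.25). HSPD1 and HSPE1 lie head to head and share a promoter in mammals, and in the RefSeq annotation of the goat assembly ARS1.2 their spans overlap. The row of HSPE1 carries the symbol Mob4 in the deposited table, and 0 rows named MOB4, a neighbouring gene in mammals, appear in that table or in the RefSeq list. Reads of MOB4 may therefore be counted as HSPE1, and the value of HSPE1 is uncertain for this reason.

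The direction of the small changes depends on how libraries are scaled. With library size only, the median log2FC of all tested genes moved from 0.04 to 0.52, and upper-quartile scaling moved it to 0.11. The members then split into 7 higher and 2 lower (HSPA4 with a log2FC of -0.14 and HSPD1 with -0.18), among all tested genes at 62.9% higher and 22.7% lower. Relative to the median of all genes under the same scaling, HSPA8 stayed between 0.49 and 0.57 over 15 alternatives, DNAJB1 between 0.37 and 0.47, HSPH1 between 0.12 and 0.22, and HSF1 between 0.05 and 0.15. On that relative scale HSP90AA1 lay between -0.55 and -0.45, HSPA4 between -0.72 and -0.64, HSPD1 between -0.76 and -0.66, and HSPE1 between -0.33 and -0.22. HSPA9 and HSP90AB1 lay between -0.18 and -0.09 and between -0.19 and -0.10. Every member thus kept its side of that median, whereas the side of 0 changed for HSP90AA1, HSP90AB1, HSPA9 and HSPE1.

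**Figure D2:**
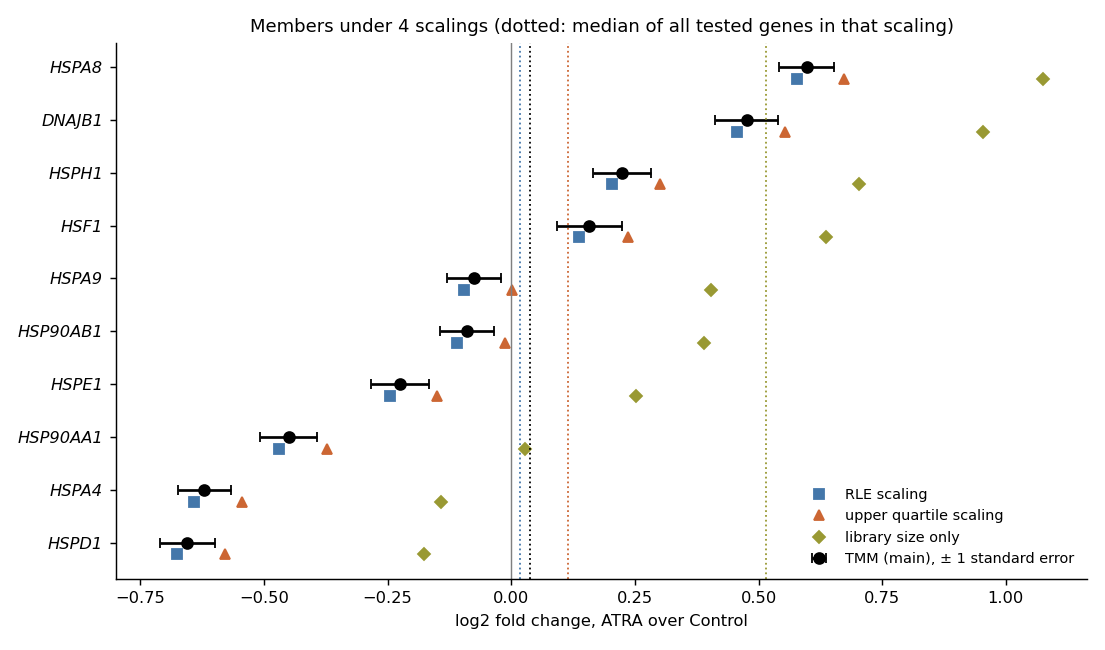
log2FC of each member under TMM (black, with 1 standard error) and under RLE, upper-quartile and library-size-only scaling (coloured symbols), with the median of all tested genes in each scaling as a dotted line. Library size only moves every member to the right, and HSP90AA1 (0.03), HSPE1 (0.25), HSP90AB1 (0.39) and HSPA9 (0.40) change sign there, but HSPA4 and HSPD1 stay below 0.

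Together, the 10 members took 0.448%, 0.459% and 0.443% of all counts in the control libraries and 0.619%, 0.636% and 0.628% in the ATRA libraries. In normalized CPM their sum was 5310.3 ± 84.0 without ATRA and 5318 ± 72.8 with it (SD, n = 3 each, exact permutation test, two-sided, p = 0.7). Without HSPA8 the other members summed to 4012 ± 68.1 and 3355 ± 76.2 (SD, n = 3 each), with the groups apart (p = 0.1 in the same exact permutation test, the lowest value possible with 3 libraries in each group). As a share of all counts, with no scaling, these other members turned the other way, from 0.340% ± 0.00714 to 0.396% ± 0.00888 (SD, n = 3 each, p = 0.1 in the same exact permutation test). HSPA8 was left out here as the member that rose most in these same libraries. With the normalized sum of all 10 members nearly unchanged, the lower sum of the others follows from that choice. The p-values without HSPA8 are therefore not read as a test. HSPA8 took a larger part of the members' summed counts with ATRA.

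Ratios of a pair of genes within a library do not depend on the scaling, and 9 pairs were compared. The values are ratios of counts, not corrected for gene length, so only their change between groups is read. In each of the 9 pairs all ATRA libraries lay on one side of all control libraries. Each had an exact two-sided permutation p of 0.1, the smallest the design allows, and also 0.1 after Benjamini-Hochberg adjustment over the 9 pairs. The share of other gene pairs with such a gap was not computed. Among all tested genes taken singly the groups did not overlap for 80.1%, so the separation is not read as particular to chaperones.

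HSP90AA1 over HSPA8 changed most among the pairs of members. There were 1.16, 1.25 and 1.25 counts of HSP90AA1 for each count of HSPA8 in the control libraries and 0.560, 0.605 and 0.608 in the ATRA libraries. The ratio of these cytosolic chaperone transcripts was thus 0.484 times the control ratio (log2 difference -1.05), far beyond the spread among the libraries of a group. HSPH1 over HSPA4 went from 0.479, 0.442 and 0.473 to 0.797, 0.883 and 0.819. The ratio of these HSP110 genes rose 1.79-fold (log2 difference 0.84).

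HSPA8 over HSPA9, the cytosolic over the mitochondrial HSP70, went from 1.85, 1.75 and 1.76 to 2.96, 2.77 and 2.82, a 1.59-fold rise. HSPD1 over HSPA9 went from 0.341, 0.357 and 0.338 to 0.237, 0.225 and 0.231. The mitochondrial chamber gene thus fell against the mitochondrial HSP70 gene, to 0.670 times the control ratio. HSPD1 over HSPE1 went from 1.92, 1.89 and 1.93 to 1.38, 1.44 and 1.44. This ratio of the chamber's barrel to its lid fell to 0.742 times the control ratio, with the reservation on HSPE1 given above.

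HSP90AA1 over HSP90AB1, the inducible over the constitutive form, went from 1.702, 1.78 and 1.74 to 1.301, 1.41 and 1.35. It fell to 0.779 times the control ratio. DNAJB1 over HSPA8 moved least of the 9 pairs, from 0.0388, 0.0375 and 0.0387 to 0.0365, 0.0342 and 0.0350. The J-domain gene and its HSP70 partner thus nearly kept their ratio, at 0.919 times the control (log2 difference -0.12, beside an SD of 0.0395 between libraries of a group).

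**Figure D3:**
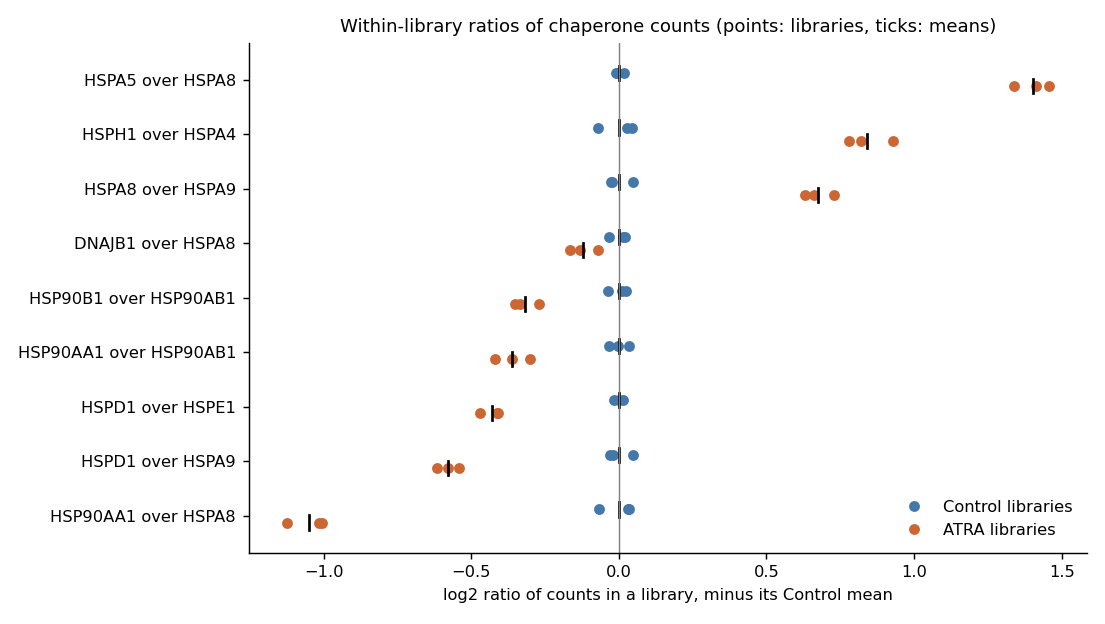
log2 ratio of the counts of 2 genes in each library, with the mean of the control libraries set to 0 (points are libraries, black ticks are group means). The ATRA libraries lie furthest to the right for HSPA5 over HSPA8 (mean 1.40), furthest to the left for HSP90AA1 over HSPA8 (mean -1.05), and closest to the controls for DNAJB1 over HSPA8 (mean -0.12).

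Related HSP70 and HSP90 genes of other compartments moved differently. HSPA5 encodes BiP, the HSP70 of the endoplasmic reticulum. It measured 2209, 2152 and 2117 normalized CPM in the control libraries and 8738, 8200.4 and 8995 in the ATRA libraries. It rose 4.003-fold (log2FC 2.001, standard error 0.0616, adjusted p = 9.12e-16), and HSPA5 over HSPA8 rose 2.64-fold within libraries. HSPA5 alone took 1.02% ± 0.0346 (SD, n = 3) of all counts with ATRA, against 0.183% ± 0.00310 without it. HSP90B1, the HSP90 of the endoplasmic reticulum known as GRP94, did not follow it. Its level was 1534, 1507 and 1454 normalized CPM without ATRA and 1096, 1137 and 1154 with it (log2FC -0.41, standard error 0.0562, adjusted p = 2.57e-06, but 0.07 with library size only). HSP90B1 over HSP90AB1 fell to 0.802 times the control ratio. TRAP1, the mitochondrial HSP90, had 56.4, 54.7 and 55.6 normalized CPM without ATRA and 46.3, 45.0 and 47.0 with it (log2FC -0.27, standard error 0.0627, adjusted p = 0.000729, but 0.21 with library size only).

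Among the further genes of the HSP70 family, HSPA6 stood out. HSPA6 is a strictly stress-inducible HSP70 that is nearly silent in unstressed cells. It had 8, 9 and 2 counts in the control libraries and 1498, 1545 and 1443 in the ATRA libraries. The level with ATRA was 34.9 ± 0.186 normalized CPM against 0.199 ± 0.119 (SD, n = 3 each), with a log2FC of 7.43 (standard error 0.179, adjusted p = 2.25e-17). The size of this fold rests on the few control counts, and its standard error, derived from the test statistic, may understate their counting error. The main stress-inducible HSP70 is listed as a pair of near-identical rows, HSP70.1 and LOC102178315, between which reads may have been divided. Summed over both rows there were 5926, 6159 and 6051 counts without ATRA and 7774, 7455 and 7862 with it. This sum did not pass the test (log2FC -0.08, standard error 0.0566, adjusted p = 0.199). Apart, HSP70.1 had a log2FC of 0.03 (adjusted p = 0.618, but a log2FC of 0.51 with an adjusted p of 4.48e-07 with library size only) and LOC102178315 one of -0.27 (adjusted p = 0.000931, but a log2FC of 0.21 with library size only). The HSPA6 row and the HSPA1 rows, both stress-inducible HSP70 genes, thus had very different values in the same libraries.

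**Figure D4:**
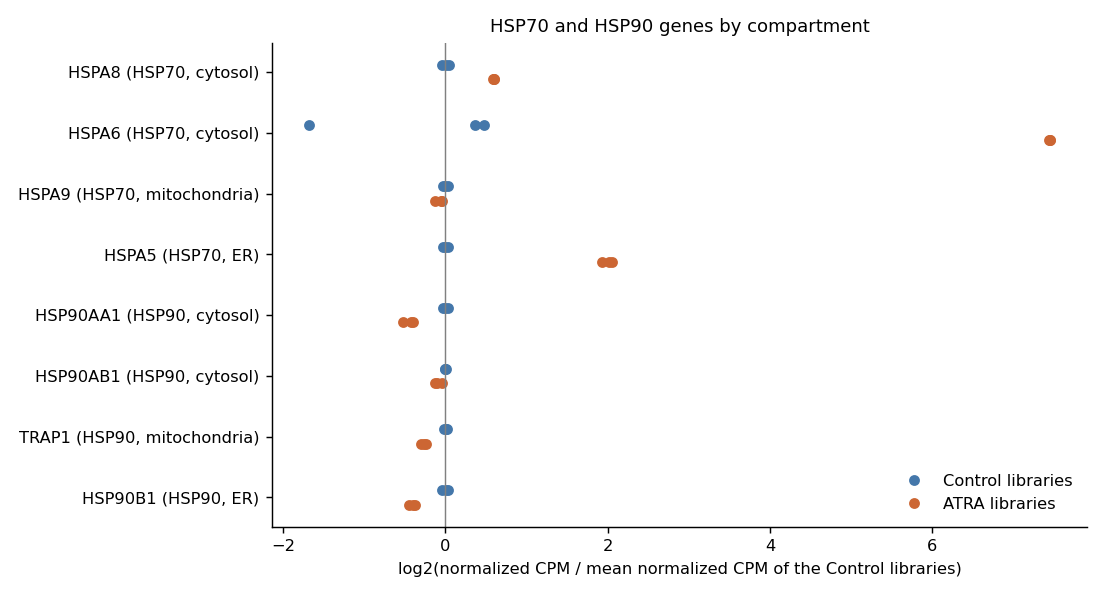
Normalized CPM of HSP70 and HSP90 genes in each library, as log2 relative to the mean of the control libraries (points are libraries). HSPA6 (log2FC 7.43) and HSPA5 (2.001) lie far to the right with ATRA, HSPA8 (0.60) somewhat to the right, and the other genes near or left of 0, where HSP90AA1, HSP90AB1, HSPA9, HSP90B1 and TRAP1 turn positive if library size is the only scaling.

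For context, 9 lists of other chaperone genes were counted, which held 111 tested genes outside the members. Of these 49 were higher and 34 lower by edgeR's test (44.1% and 30.6%, against 40.9% and 38.7% of all tested genes). With library size only 85 were higher and 14 lower (76.6% and 12.6%, against 62.9% and 22.7%). Their median log2FC was 0.08, against 0.04 over all tested genes. The study's thresholds were passed by 25 of the 111 genes (22.5%, below the 31.0% of all tested genes), 16 higher and 9 lower. The counts of each list that follow are read against the same shares of all genes.

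The list of HSP70 and HSP110 relatives had 9 tested genes, 3 higher and 3 lower (33.3% each), and with library size only 7 higher and 1 lower. Besides HSPA6, HSPA4L (log2FC 1.38, standard error 0.254), a further HSP110 gene, and HSPA14 (0.45) rose. HSPA4L had only 28, 47 and 22 counts in the control libraries. HSPA2 (-0.65, but an adjusted p of 0.118 with library size only) and LOC102178315 fell under TMM. The third lower gene was HSPA12B (-1.98), at 1.298 normalized CPM in the control group. The J-domain list had 16 tested genes, 5 higher and 5 lower, and with library size only 11 higher and 3 lower. Those that rose most were DNAJC21 (log2FC 1.32), which acts in ribosome assembly, DNAJB2 (1.20) and DNAJB6 (0.49), a suppressor of aggregation. Those that fell most were DNAJC9 (-2.18), which also binds histones, DNAJB4 (-1.44) and DNAJC13 (-0.86), a protein of endosomes. DNAJA1, a further J-domain partner of HSPA8, had a log2FC of -0.55 and so differed in direction from DNAJB1 under TMM (-0.07 with library size only, adjusted p = 0.191).

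The list of small heat shock proteins, most of which hold unfolded clients without ATP, had 7 tested genes. Of these 3 were higher and 4 lower, and with library size only 3 higher and 2 lower. CRYAB, the gene of αB-crystallin, measured 142, 132 and 130.4 normalized CPM without ATRA and 414, 335 and 392 with it (log2FC 1.497, standard error 0.0717, adjusted p = 8.22e-13). HSPB6, found mainly in muscle-type cells, measured 86.3, 59.9 and 68.5 without ATRA and 4.997, 4.17 and 3.82 with it (log2FC -4.04, standard error 0.135, adjusted p = 6.20e-14). These genes thus moved far more than any member and in opposite directions. HSPB1, the gene of HSP27, had a log2FC of -0.50 (adjusted p = 3.18e-07, but -0.02 with an adjusted p of 0.716 with library size only). HSPB8 (log2FC 1.99) and HSPB11 (0.85) rose from low levels, while HSPB7 (-1.87) and HSPB2 (-0.41, adjusted p = 0.0105, but 0.0696 with library size only) fell under TMM. HSPA12B, HSPB2 and the chaperonin gene CCT8 below were named after their values were seen.

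Co-chaperones of HSP90 and regulators of HSP70 proteins moved in both directions. Of 18 HSP90 co-chaperones 7 were higher and 6 lower (38.9% and 33.3%), with a median log2FC of 0.05. The number of higher genes was 4 without Control replicate 3 and 2 with the t.test function, and with library size only 14 were higher and 1 lower. AHSA1, which stimulates the ATPase of HSP90, rose with a log2FC of 0.49 (adjusted p = 4.59e-07), and STIP1, which bridges HSP70 and HSP90, with 0.20 (adjusted p = 0.00496). PPID (0.25) and SUGT1 (0.23) were also higher, where the call of SUGT1 did not hold without Control replicate 3 (adjusted p = 0.0868) or ATRA replicate 1 (0.0847). With the t.test function the calls of PPID (adjusted p = 0.0507) and SUGT1 (0.0802) were both lost. The largest decreases were those of UNC45A (-1.06), a chaperone of myosin, FKBP5 (-0.63) and NUDC (-0.33, but 0.15 with library size only). FKBP5 lost its call with library size only (adjusted p = 0.104) and NUDC with the t.test function (0.0583). Of 9 regulators of HSP70 nucleotide exchange 2 were higher, BAG4 (0.37) and BAG5 (0.30), and 3 lower, BAG2 (-0.83), HSPBP1 (-0.83) and SIL1 (-0.40, but 0.08 with library size only). In this list 5 genes were higher with upper-quartile scaling, and with library size only 6 were higher and 2 lower. BAG3, an HSF1 target that links HSP70 to autophagy, had a log2FC of 0.09 (adjusted p = 0.174, but 0.0158 with upper-quartile scaling and 2.39e-07 with library size only).

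Most of the other mitochondrial chaperones and proteases were higher. Of 21 tested genes 15 were higher and 2 lower (71.4% and 9.52%, against 40.9% and 38.7% of all tested genes), with a median log2FC of 0.32, and with library size only all 21 were higher. HTRA2 (log2FC 1.11), a protease of the intermembrane space, PAM16 (1.10), which controls the import motor, and SPG7 (1.05), a protease of the inner membrane, rose most. TRAP1 and PMPCB were the lower ones, where PMPCB (-0.15) turned to 0.33 with library size only and lost its call without Control replicate 2 (adjusted p = 0.0557), Control replicate 3 (0.0596) or ATRA replicate 1 (0.0719). Further genes are named here after their values were seen, because their proteins work with HSPA9 or degrade matrix proteins. They are DNAJA3 (0.75), the mitochondrial J-domain protein, the nucleotide exchange factors GRPEL1 (0.29) and GRPEL2 (0.41), HSCB (1.02), the J-domain protein of iron-sulfur cluster transfer, and LONP1 (0.46), the matrix protease. The call of GRPEL1 was lost with the t.test function (adjusted p = 0.0865). The J-domain genes DNAJC19 (log2FC 0.16, adjusted p = 0.0694) and DNAJC15 (0.02, adjusted p = 0.794), whose proteins belong to the import motor, did not pass the test, and both did with library size only. DNAJC19 also passed with upper-quartile scaling (adjusted p = 0.0116), without Control replicate 2 (0.0398) and without ATRA replicate 2 (0.00862). Nothing is read from these genes about the partners of HSPA9 as a group.

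The cytosolic chaperonin went the other way under TMM. Of the 14 tested genes of TRiC and its feeder prefoldin, 3 were higher and 9 lower, and with library size only 9 were higher and 3 lower. The lower ones included 7 of the 8 TRiC subunits, the exception being CCT8 (log2FC -0.12, adjusted p = 0.0574). CCT8 was called lower with DESeq2 (adjusted p = 0.0267), RLE scaling (0.0285), no filter (0.047) and without Control replicate 3 (0.0297). CCT5 (-1.06), CCT3 (-0.82) and CCT6A (-0.61) fell most, and with library size only 3 of the 8 subunits were lower and 5 higher. All 3 higher genes were prefoldin subunits, PFDN5 (0.71), VBP1 (0.45) and PFDN2 (0.29, a call lost with the t.test function at an adjusted p of 0.111). TRiC, the HSP60-type chamber of the cytosol, and HSPD1, that of the mitochondria, were thus both lower under TMM.

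Of 10 heat shock factors and regulators 6 were higher and 1 lower, and with library size only 8 and 1. HSF2, a partner of HSF1, measured 24.2, 24.6 and 26.0 normalized CPM without ATRA and 29.2, 29.9 and 28.0 with it (log2FC 0.22, standard error 0.0741, adjusted p = 0.0121, but 0.0581 without Control replicate 1). HSF4, which is known from the lens, had 14, 12 and 10 counts without ATRA and 100, 79 and 107 with it (log2FC 2.55). HSF2BP (1.99) and the acetyltransferase gene EP300 (0.56) were higher as well, and HDAC6 (-1.65), a deacetylase that senses ubiquitinated aggregates, was lower. Of 22 further genes that HSF1 is known to induce, 10 were higher and 7 lower (45.5% and 31.8%, near the shares of all tested genes), with a median log2FC of 0.09. With library size only 18 were higher and 2 lower. HMOX1 (3.53), ZFAND2A (1.76) and DEDD2 (1.62) rose most. SERPINH1 (-1.78), DNAJB4 (-1.44) and DNAJA1 (-0.55) fell most. Several of them answer to other controls too, since HMOX1 encodes heme oxygenase of the oxidative stress response and SERPINH1 the collagen chaperone HSP47.

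**Figure D5:**
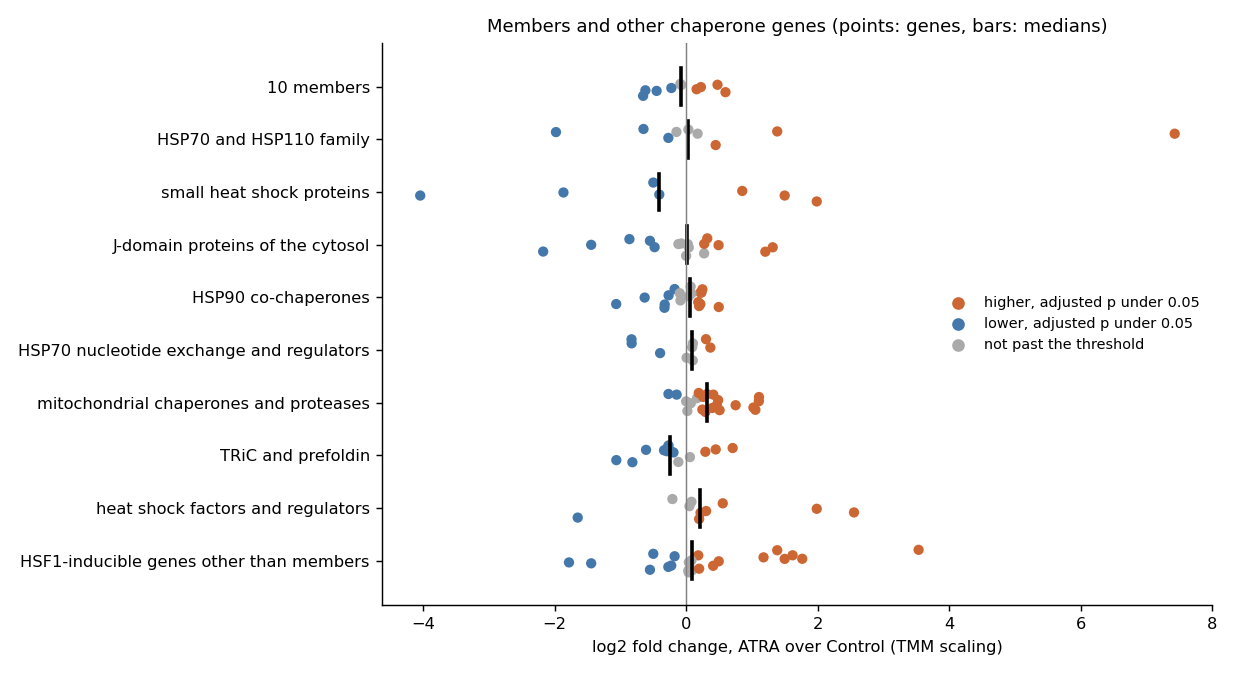
log2FC under TMM of the 10 members and of the genes in 9 chaperone lists (points are genes, coloured by direction where the adjusted p is under 0.05, bars are medians). The members lie within -0.66 and 0.60, while the lists reach from -4.04 (HSPB6) to 7.43 (HSPA6); with library size only, all points would move to the right by about the shift of the median of all genes, from 0.04 to 0.52.

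The profiles nearest to 2 members were sought among 9030 genes with a mean of at least 10 normalized CPM, by the root mean square difference over the 6 libraries in log2(CPM + 1) centred on the control mean. Nearest to HSPH1 were FAM114A1 (difference 0.0208), ZMYND11, TUBE1, SMARCC1 and DHX40 (0.0255). Nearest to HSPD1 were MEX3D (0.0291), FAM57A, LMO4, ALDH2 and RARS (0.0328). No member of the set and no gene of the 9 lists was among them. With 5 places per member among 9030 genes, few such genes would be met by number alone, so nothing is read from their absence.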

How the data were processed

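Poly(A) RNA of 3 control and 3 ATRA-treated cultures was sequenced. The values used are counts of reads per gene as deposited by the authors, and per the labels' processing notes HISAT2, featureCounts and DESeq2 were used. Versions, the strand setting, the genome build and the annotation are not given in the sources used here. All 15944 row names matched the RefSeq gene list of ARS1.2, used for names and neighbours only.

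Libraries held 35532339 to 38012771 counts. The lowest member count was 1560, a counting error of 2.53%. From the counts, genes were filtered with filterByExpr, scaled by TMM and tested with edgeR 4.0.16 (R 4.3.3, robust quasi-likelihood, two-sided), with Benjamini-Hochberg adjustment over 12588 genes and a threshold of 0.05. Standard errors were derived from the test, as the absolute log2 fold change over the square root of its F statistic. The test was checked on simulated data. The methods name R's t.test function for the differential test, and the log2 fold change above 1 with p under 0.05 as thresholds. The t.test function was run as an alternative because the deposited values are counts. Other alternatives were RLE, upper-quartile and library-size-only scaling, other filters, a prior count of 2, DESeq2 1.42.0, a replicate block and leaving out each library. Summing the HSPA1 rows was chosen after seeing the data. Ratios used counts plus 0.5 (scipy 1.17.1).

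The members and lists were chosen with earlier results of these data known. Besides the members and 10 genes chosen by name, up to 3 genes per list and direction were named. They were those with the largest absolute log2 fold change at an adjusted p under 0.05 and a mean of at least 1 normalized CPM. This mean was taken over both groups. Genes low in the control group, such as HSPA6, HSPB8 and HSF4, thus passed it through their ATRA level. A further 10 genes were named after their values were seen. The batch label is the same for all samples.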

Additional observations from a re-analysis of the deposited data

How the results depend on the processing

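The main limit is the scaling. With library size only, 7 members were higher and 2 lower, 1 member (HSPA8, log2FC 1.08) passed the study's thresholds, and of the other chaperone genes 85 were higher and 14 lower. The log2FC then turned to 0.40 for HSPA9, 0.0284 for HSP90AA1, 0.39 for HSP90AB1, 0.25 for HSPE1, 0.0704 for HSP90B1, 0.21 for LOC102178315, 0.15 for NUDC, 0.33 for PMPCB, 0.0811 for SIL1, 0.359 for CCT8, 0.0696 for HSPB2 and 0.21 for TRAP1. Upper-quartile scaling turned HSPA9 to 0.0013. The DNAJC15 log2FC, near 0 throughout except with library size only, turned to -0.0027 with RLE scaling and with DESeq2 and lay between -0.0191 and 0.0444 without 1 library. R's t.test function called 2 members higher. Of 150 values of the members under alternatives, 134 kept direction and call, 10 lost the call, 1 gained it and 5 reversed. A prior count of 2 leaves the p-values as they are, so its values in this tally could not change the call. Leaving out 1 library at a time put the HSP70.1 log2FC between -0.0291 (without ATRA replicate 3) and 0.0601, and summing the HSPA1 rows gave -0.0803. Without 1 library, the log2FC of HSF1 was 0.11 to 0.18. The shift with library size only is that of all genes, whose median log2FC moved from 0.04 to 0.52. Why the scaling factors differ between the groups, and the cause of the other shifts, was not tested. Counting error was small for the members, whose lowest count was 1560.

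Same-numbered control and ATRA libraries had correlations of their deviations of 0.33, -0.03 and -0.27 over 9030 genes, so the numbers were not taken as pairs. The highest correlation of a control with an ATRA library was 0.395, between Control replicate 3 and ATRA replicate 2. Whether libraries share animals under another numbering was not tested. With the replicate block 4 members were higher and 4 lower, and 5123 of all tested genes were higher and 4869 lower.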
